A study of Homo sapiens with 52 samples.

Results

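The lysosome and autophagy genes described here are 37 of the 78894 genes in the deposited gene-level tables. Members were the rows whose gene name stood on a fixed list of names. No measured value entered that rule, but the list was chosen with earlier results of these data known. All 37 names were found, and all 37 passed the filter on low counts in each cell line. They comprise 6 proteins of the lysosomal membrane, 9 cathepsins and other peptidases, 9 glycosidases, 7 lipid-handling enzymes and cofactors, 3 autophagy adaptors, 2 subunits of the proton pump and 1 regulator, the transcription factor TFEB.

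Expression was measured by bulk sequencing of polyadenylated RNA in 52 samples of SUM159PT (17), MDA-MB-231 (18) and HS578T (17), established human breast cancer lines used as models of the claudin-low subtype. Each line received 6 treatments, which gave 18 groups, 16 of 3 samples and 2 of 2 (SUM159PT siNRP1#5 and HS578T shNRP1#3). NRP1, a co-receptor for semaphorins and vascular growth factors, was lowered with the siRNAs siNRP1#3 or siNRP1#5 at 20 nM, and these cells were harvested at 72 hrs together with the non-targeting control siNT. The shRNAs shNRP1#3 and shNRP1#5 were delivered by lentivirus, and transduced cells were selected with puromycin before they were seeded and harvested 48 hrs later together with their own control shNT. Sequences numbered #3 target the transmembrane form of NRP1 and those numbered #5 target total NRP1. The siRNA and the shRNA numbered #5 have the same sequence. Delivery, selection and time of harvest differ together between siRNA and shRNA samples and cannot be told apart. The shRNA replicates were taken at consecutive passages, and p-values here measure only the spread between these samples, which may be technical. In bulk samples, fewer cells of a kind and less RNA per cell cannot be told apart.

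Lysosomes are acidic organelles that break down proteins, glycans and lipids brought to them by endocytosis and by autophagy. A vacuolar proton pump acidifies them, heavily glycosylated membrane proteins such as LAMP1 and LAMP2 line their boundary, and soluble hydrolases do the degradation. TFEB, when it enters the nucleus, binds E-box sequences of the type called the CLEAR element upstream of many lysosomal genes and raises their transcription. In breast cancer cells, cathepsins are known as degradative enzymes and, once secreted, as proteases of the extracellular matrix.

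Promoter sequence was found for 28 of the 37 members among RefSeq promoters of assembly GRCh38.p14, which run from 250 bases before the start to 50 bases after it. The core E-box CACGTG reads the same on both strands. It was present in 8 of the 28 member promoters (28.6%) and in 2396 of the 27305 promoters of all genes (8.77%). The longer palindrome TCACGTGA, which contains the core, was present in 5 of 28 (17.9%) and in 321 of 27305 (1.18%). The 5 members with the longer motif are shown because they hold the letters that TFEB is known to bind, and because their transcripts did not move alike in the comparisons that follow. Each line is the stretch that ends at the last base before the RefSeq start, 5′ to 3′ on the strand of the gene, with the core in capitals.
LAMP1, chr13:113297039-113297238, plus strand: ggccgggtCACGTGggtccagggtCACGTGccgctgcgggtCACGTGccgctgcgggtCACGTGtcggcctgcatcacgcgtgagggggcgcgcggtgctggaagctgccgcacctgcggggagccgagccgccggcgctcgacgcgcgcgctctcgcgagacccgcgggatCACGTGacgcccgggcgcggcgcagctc
MCOLN1, chr19:7522544-7522623, plus strand: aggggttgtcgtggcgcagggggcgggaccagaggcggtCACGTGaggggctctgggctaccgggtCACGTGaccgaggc
ATP6V0D1, chr16:67481158-67481237, minus strand: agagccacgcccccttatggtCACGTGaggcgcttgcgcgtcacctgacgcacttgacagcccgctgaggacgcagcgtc
CTSA, chr20:45891255-45891334, plus strand: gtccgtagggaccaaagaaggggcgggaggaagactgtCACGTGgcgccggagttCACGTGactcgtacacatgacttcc
GAA, chr17:80101501-80101580, plus strand: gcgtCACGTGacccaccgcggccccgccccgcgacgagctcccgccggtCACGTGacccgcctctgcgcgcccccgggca
Counted from the start, the cores began at -41 and -14 in MCOLN1, at -59 in ATP6V0D1, at -42 and -25 in CTSA, and at -76 and -31 in GAA. LAMP1 held 6 cores between -192 and -1, the last of which crosses the start and is not in the stretch shown. CTSD (-47), CD63 (-180) and NEU1 (-126) held 1 core each without the longer motif. A match describes the letters of the window, not binding in these cells.

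The samples held between 25310443 and 72003442 expected counts (median 44804505). The lowest expected count of a member in any sample was 0 for CTSS, 9 for CTSK, 40 for FUCA1 and 65 for GABARAPL1, and the other members had at least 143. No pair of replicates agreed within counting error, since the smallest ratio of chi-square to its degrees of freedom was 10.0. NRP1 was below its control in 12 of 12 knockdowns, at 3.37 to 61.6% of the control mean, and was called lower in 11 of them (HS578T shNRP1#3, adjusted p = 0.069, edgeR). The mesenchymal marker VIM was abundant in all lines (medians 2496 to 4349 TPM), whereas the epithelial markers CLDN4, CLDN7, EPCAM and CLDN3 had medians of 149, 35.4, 22.7 and 6.86 TPM in MDA-MB-231 and of 1.02 TPM or less in the other lines. CDH1, the gene of E-cadherin, had medians between 0.05 and 0.405 TPM in the 3 lines. Of the macrophage markers, PTPRC had medians between 0 and 3.41 TPM, CD14 between 0.82 and 3.19 TPM and CSF1R between 0.41 and 13.2 TPM, while CD68, itself a lysosomal protein, had medians between 6.57 and 163 TPM. The 3 HS578T siNRP1#5 libraries carried 27 marker transcripts of MDA-MB-231 at 16.9, 13.3 and 8.65% of the MDA-MB-231 level, and replicate 2 also carried 28 markers of SUM159PT at 4.87%. The HS578T siNRP1#3 libraries stood at 1.57, 2.24 and 4.78% of the MDA-MB-231 level, and the other 46 libraries at no more than 2.07% of another line. Changes of members in HS578T siNRP1#5 are therefore also given after these reads were subtracted. The profile subtracted was the mean of the other line's non-targeting controls, not of its knockdown samples.

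In the non-targeting controls, the members ranged from very abundant transcripts to a few that were barely detected. Levels are given in TPM, which adjust for gene length, as medians over the 6 control samples of SUM159PT, MDA-MB-231 and HS578T in that order. CTSD, the aspartic protease of the lysosome, ranked first of the 37 in all lines at 1754, 1413 and 1169 TPM. The tetraspanin CD63 ranked second in all lines at 1414, 797 and 820 TPM. The ranges of the 2 genes were apart in MDA-MB-231, where CTSD spanned 1150 to 1579 TPM and CD63 711 to 882 TPM, and overlapped in SUM159PT and HS578T. PSAP, the precursor of the saposins that assist sphingolipid hydrolysis, stood at 751, 756 and 358 TPM, and the autophagy receptor SQSTM1 at 810, 740 and 401 TPM, with overlapping ranges in each line. At the low end were CTSK, a collagen-degrading cathepsin (0.54, 0.985 and 0.35 TPM), and CTSS, an elastinolytic cathepsin best known from antigen-presenting cells (8.23, 16.7 and 0.105 TPM). TFEB itself stood at 15.4, 6.86 and 12.5 TPM.

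**Figure D1:**
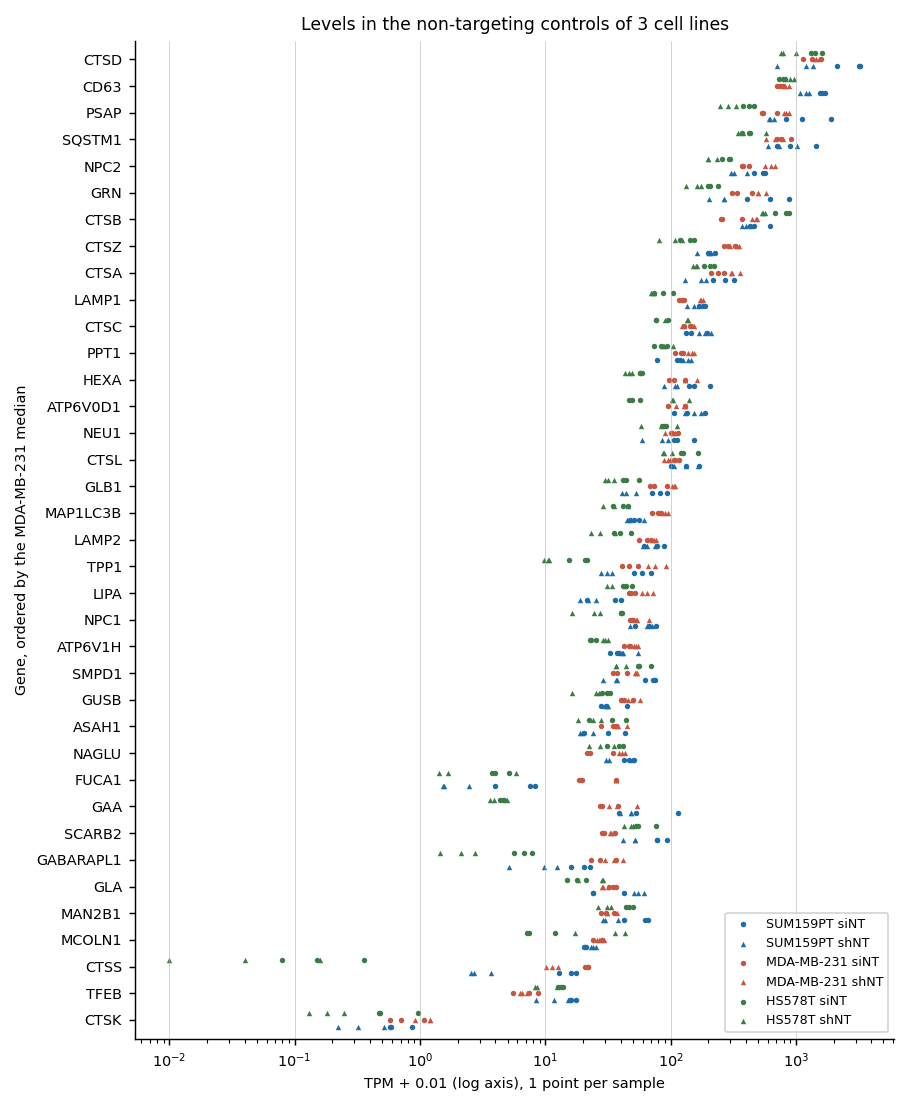
TPM plus 0.01 of the 37 genes on a log axis, 1 point for each siNT or shNT sample, 6 samples for each of 3 cell lines. CTSD and CD63 lie at the top in every line, and CTSS in HS578T lies below 1 TPM in all 6 samples (0 to 0.35 TPM).

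Between cell lines, controls were compared with 18 group means fitted to all 52 samples by edgeR's quasi-likelihood test, and a member was called at a Benjamini-Hochberg adjusted p under 0.05 over the 23416 genes tested. MDA-MB-231 had 6 members higher and 19 lower than SUM159PT, beside 27.6% and 31.8% of all genes tested. HS578T had 4 members higher and 18 lower than SUM159PT (all genes, 29.8% and 33.7%), and 11 higher and 12 lower than MDA-MB-231 (34.9% and 35.4%). For the first comparison 16 members in place of 25 were called without replicate 2 of every group, knockdowns included. On the TPM scale the median of all genes shifted by 0.27, -0.42 and -0.70 (log2) in these 3 comparisons, and a called member had the other sign for SMPD1 against SUM159PT and for CTSD, NEU1, NAGLU and ASAH1 against MDA-MB-231, all in HS578T.

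CTSS showed the widest difference. Its siNT samples, in the order of the replicate numbers as throughout, held 17.7, 16.04 and 12.8 TPM in SUM159PT, 22.0, 20.7 and 22.0 TPM in MDA-MB-231 and 0.14, 0.07 and 0.35 TPM in HS578T, and its shNT samples held 3.65, 2.7 and 2.56, then 10.1, 11.3 and 12.7, then 0.15, 0.03 and 0 TPM. All HS578T controls lay below all others, and those of SUM159PT and MDA-MB-231 overlapped. HS578T was lower than SUM159PT by a log2 difference of -6.09 ± 0.41 (SE, 6 samples a line, adjusted p = 2.4e-16) and lower than MDA-MB-231 by -6.89 ± 0.42 (adjusted p = 4.5e-18).

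GAA, the acid alpha-glucosidase that degrades glycogen, held 4.56, 4.67 and 4.35 TPM (siNT) and 4.95, 3.6 and 3.9 TPM (shNT) in HS578T, against 38.5 to 113.8 TPM in SUM159PT and 27.5 to 53.8 TPM in MDA-MB-231. No HS578T sample reached the range of another line, and the log2 difference was -3.63 ± 0.32 from SUM159PT (adjusted p = 6.9e-13) and -2.63 ± 0.30 from MDA-MB-231 (adjusted p = 6e-10). FUCA1, which removes fucose from glycans, held 18.7 to 36.8 TPM in MDA-MB-231, above both SUM159PT (1.52 to 8.32 TPM) and HS578T (1.41 to 5.82 TPM). It was higher in MDA-MB-231 than in SUM159PT by 2.73 ± 0.35 (adjusted p = 1e-08), and HS578T differed from MDA-MB-231 by -2.30 ± 0.34 (adjusted p = 1.8e-07). TPP1, a tripeptidyl peptidase, was lowest in HS578T (9.72 to 21.3 TPM, against 27.7 to 70.3 in SUM159PT and 41.1 to 92.6 in MDA-MB-231), with a log2 difference of -1.35 ± 0.14 from MDA-MB-231 (adjusted p = 2.8e-11).

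GABARAPL1, a homologue of yeast Atg8 that is attached to autophagosomal membranes, held 23.1 to 41.9 TPM in MDA-MB-231, 5.09 to 22.8 TPM in SUM159PT and 1.43 to 7.80 TPM in HS578T. MDA-MB-231 stood above both other lines, whose ranges overlapped, and HS578T differed from it by -2.36 ± 0.22 (adjusted p = 2e-12). CTSB, a cysteine cathepsin, went the other way, with 532 to 880 TPM in HS578T and 254 to 491 TPM in MDA-MB-231 (log2 difference 1.58 ± 0.15, adjusted p = 2e-12). CD63 was lower in MDA-MB-231 than in SUM159PT (1076 to 1702 TPM) by -1.18 ± 0.11 (adjusted p = 2e-12) without overlap. TFEB was lowest in MDA-MB-231 (5.56 to 8.80 TPM), where it differed from SUM159PT (8.45 to 17.7 TPM) by -1.40 ± 0.22 (adjusted p = 4.3e-07), and HS578T (8.23 to 13.8 TPM) differed from MDA-MB-231 by 1.53 ± 0.22 (adjusted p = 5.4e-08). The TFEB ranges overlapped at their edges, and HS578T and SUM159PT did not differ beyond their spread (0.13, adjusted p = 0.63).

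To ask what lowering NRP1 did to these genes, each NRP1-targeting sequence was compared with the non-targeting control of its own delivery, in 1 model per cell line. Calls rest on adjusted p over 20067, 18800 and 19661 genes in SUM159PT, MDA-MB-231 and HS578T. Over the 12 knockdowns, 34 of the 37 members were called at least once, beside 69.7% of the 16331 genes tested in all lines. Of these, 25 were called lower only, 4 higher only and 5 in both directions, beside 27.6%, 26.4% and 15.6% of those genes. Of 444 tests, 53 gave a lower and 14 a higher call (all genes, 6.3% and 5.57% of tests), and LAMP1, HEXA and NEU1 were called in none. MDA-MB-231 shNRP1#5 alone gave 20 of the 53 lower calls. Most members had high counts in every sample, and the shares of all genes were not taken at matched counts. All counts in this paragraph are from fits without a replicate block, which changed the calls of some comparisons, as given below. CTSZ, a carboxypeptidase, was lower in 5 knockdowns and NPC1 in 4, whereas MAP1LC3B was higher in 3 and lower in 1. GLB1, the lysosomal beta-galactosidase, had a log2 fold change below 0 in 12 of 12 knockdowns (-0.75 to -0.10) with 2 calls, and ATP6V1H one above 0 in 12 of 12 (0.02 to 0.29) with 1 call. These 2 members are named for their constant sign, and the share of all genes with such a sign is not given. The siRNAs of a line share the siNT samples and the shRNAs share the shNT samples, so that comparisons within a line and delivery are not independent.

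**Figure D2:**
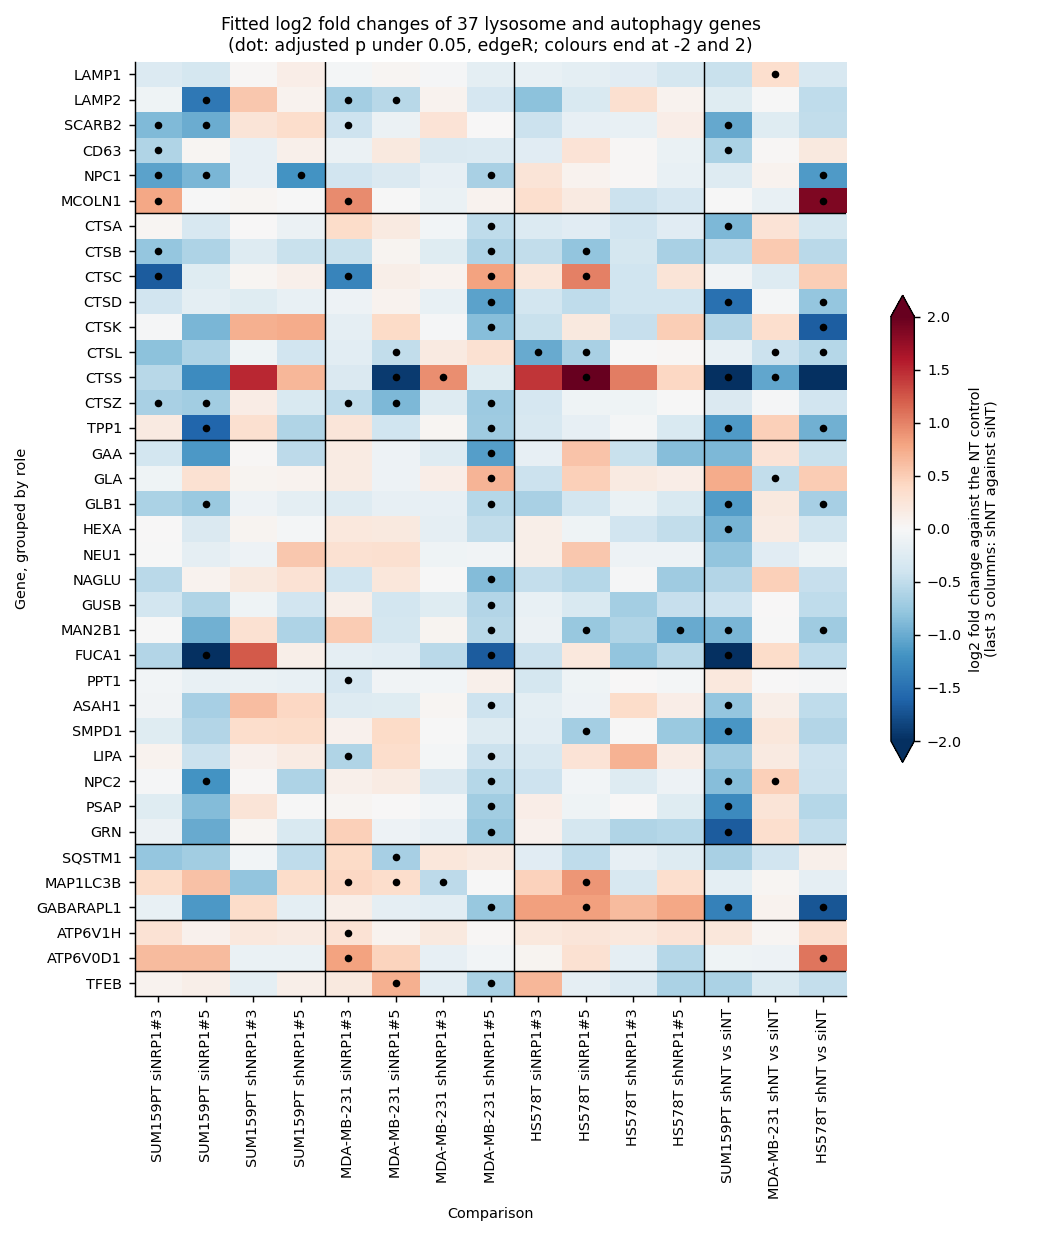
Heat map of fitted log2 fold changes of the 37 genes (rows, by role) in 12 knockdowns and 3 comparisons of shNT with siNT (columns), blue lower and red higher, with colours ending at -2 and 2 and a dot at adjusted p under 0.05. MDA-MB-231 shNRP1#5 carries 22 dots, 20 of them lower, and SUM159PT shNRP1#3 and HS578T shNRP1#3 carry none.

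In SUM159PT, siNRP1#3 left 1 member higher and 6 lower, beside 3.16% and 5.5% of all genes, and 28 of 37 log2 fold changes were below 0 (median -0.14, all genes -0.01). The count of 7 fell to 2 without siNRP1#3 replicate 1 or 3 and to 3 without siNT replicate 2. With siNRP1#5 no member was higher and 8 were lower (all genes, 9% and 8.89%), with 30 below 0 and a median of -0.62 (all genes 0.01). That count was 5 without siNT replicate 1 or 2, 14 without siNT replicate 3 and 0 when only the siNRP1#5 and siNT samples were fitted. In these siRNA samples the replicate numbers paired the samples, and with the replicate as a block siNRP1#5 had 16 calls, NPC1 no longer among them. Lower only with the block were CTSS (-1.44, adjusted p = 0.032), GAA (-1.31, 0.0028), GABARAPL1 (-1.13, 0.0076) and MAN2B1 (-1.03, 0.011). So were GRN (-1.02, 0.0058), PSAP (-0.90, 0.012), GUSB (-0.67, 0.038) and CTSB (-0.66, 0.030), and ATP6V0D1 was higher (0.66, 0.026). These calls rest on 2 siNRP1#5 samples. In TMM-normalised counts, siNRP1#5 replicate 2 lay within the siNT range for CTSS, GAA, GRN and PSAP. With shNRP1#3 there were 0 calls (all genes, 0.339% higher and 1.06% lower), 5 members at an unadjusted p under 0.05 and 1 call by DESeq2. With shNRP1#5 the 1 call was lower (all genes, 3.24% higher and 2.7% lower), and it was lost without shNRP1#5 replicate 1 or 2 or shNT replicate 1 (0 calls).

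In MDA-MB-231, siNRP1#3 left 4 members higher and 6 lower (all genes, 11.4% and 14.3%), and siNRP1#5 left 2 higher and 5 lower (14.4% and 14.9%). The members' medians were 0.03 and -0.01, close to those of all genes (-0.01 and 0.01). The siNRP1#5 count of 7 was 11 without siNRP1#5 replicate 1, 13 without its replicate 3 and 2 with only the siNRP1#5 and siNT samples fitted. shNRP1#3 gave 1 higher and 1 lower call (1.46% and 2.19%), which fell to 1 in all without shNRP1#3 replicate 1 or shNT replicate 2 or 3. shNRP1#5 gave 2 higher and 20 lower calls (8.79% and 11.9%), with 29 members below 0 and a median of -0.50 (all genes 0.02). By role, the lower calls comprised 1 of 6 membrane proteins, 6 of 9 cathepsins and peptidases, 6 of 9 glycosidases, 5 of 7 lipid-handling genes, 1 of 3 adaptors and TFEB. The count of 22 was 12 and 10 without shNRP1#5 replicates 2 and 3, and 13, 14 and 14 without shNT replicates 1, 2 and 3. NRP1 itself was left at 48.3% of its control mean with shNRP1#5 and at 35.9% with shNRP1#3.

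In HS578T, siNRP1#3 gave 1 lower call and none higher (all genes, 2.34% and 2.31%), which became 2 without siNRP1#3 replicate 2. siNRP1#5 gave 4 higher and 4 lower calls (10.1% and 8.53%). After reads of other cell lines were subtracted 2 calls stood, CTSC and MAP1LC3B, and the count was 3 and 5 without siNRP1#5 replicates 2 and 3 and 5 and 2 without siNT replicates 2 and 3. shNRP1#3 gave 0 calls by edgeR and by DESeq2, with 3 members at an unadjusted p under 0.05 (all genes, 0.00509% higher and 0.0305% lower). shNRP1#5 gave 1 lower call (0.275% and 0.671%), which was lost (0 calls) without shNRP1#5 replicate 2 or 3 or any 1 of the shNT replicates. The replicate numbers paired the HS578T shRNA samples, and with the replicate as a block 5 members were lower with shNRP1#5, namely MAN2B1 (-1.01, adjusted p = 0.0077), GAA (-0.89, 0.029), CTSB (-0.66, 0.033), SMPD1 (-0.75, 0.034) and NAGLU (-0.72, 0.038).

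Among the membrane proteins, the cholesterol exporter NPC1 and the lysosomal calcium channel MCOLN1 moved in opposite directions under siNRP1#3 in SUM159PT. Values per sample are TMM-normalised CPM, that is counts scaled to the size of each library. NPC1 (chr18:23506184-23586506, GRCh38) held 189, 194 and 123 CPM with siNT, 68.9, 90.5 and 82.3 CPM with siNRP1#3, and 92.1 and 86.1 CPM with siNRP1#5. Every knockdown sample lay below every control, at a log2 fold change of -1.07 ± 0.26 (SE, n = 3 and 3, adjusted p = 0.017) and -0.92 ± 0.29 (n = 2 and 3, adjusted p = 0.04). The first call was lost without siNRP1#3 replicate 1 or 3 or siNT replicate 1 or 2, at -0.96 to -1.08, and the second kept its call in 1 of 5 fits with 1 sample left out. The shNT samples of SUM159PT held 166, 140 and 115 CPM and the shNRP1#5 samples 47.7, 52.9 and 83.7 CPM, again apart (-1.19 ± 0.26, adjusted p = 0.012), with the call lost without shNRP1#5 replicate 1 or 2 or shNT replicate 1 (-1.04 to -1.09). In MDA-MB-231, NPC1 fell from 112, 130 and 105 CPM with shNT to 76.9, 75.1 and 70.4 CPM with shNRP1#5 (-0.64 ± 0.15, adjusted p = 0.0053).

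MCOLN1 (chr19:7522624-7534009), whose promoter is shown above with its 2 cores, held 26.1, 29.8 and 28.8 CPM with siNT in SUM159PT and 52.0, 43.9 and 48.8 CPM with siNRP1#3. The groups were apart (0.77 ± 0.18, adjusted p = 0.015), a call kept in 4 of 6 fits with 1 sample left out. In MDA-MB-231 it rose from 29.7, 32.6 and 27.5 CPM to 66.3, 51.5 and 54.8 CPM (0.94 ± 0.14, adjusted p = 0.00011), a call kept in 6 of 6 such fits. With siNRP1#5 the MCOLN1 samples overlapped siNT in both lines, at 21.3 and 34.8 CPM in SUM159PT and 23.4, 33.4 and 32.2 CPM in MDA-MB-231, without a call.

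LAMP2 (chrX:120426148-120469365), a glycosylated protein of the lysosomal membrane, held 185, 145 and 156 CPM with siNT in SUM159PT and 61.1 and 59.0 CPM with siNRP1#5. That difference left no overlap (-1.43 ± 0.22, n = 2 and 3, adjusted p = 0.0009). In MDA-MB-231, siNT held 126, 113.6 and 135 CPM, siNRP1#3 78.2, 83.9 and 70.9 CPM and siNRP1#5 89.9, 69.1 and 97.5 CPM, so that LAMP2 fell with both siRNAs (-0.69 ± 0.12, adjusted p = 0.00043, and -0.55 ± 0.12, adjusted p = 0.0021). SCARB2, which carries glucocerebrosidase to the lysosome, held 224, 188 and 174 CPM with siNT in SUM159PT, 113.7, 116 and 89.0 CPM with siNRP1#3 and 102 and 95.4 CPM with siNRP1#5. Both siRNAs were apart from siNT (-0.88 ± 0.18, adjusted p = 0.0059, and -0.99 ± 0.20, adjusted p = 0.0044). LAMP1, the most abundant LAMP protein and the member with the most cores in its promoter, held 406, 518 and 375 CPM with siNT in SUM159PT and 352, 356 and 366 CPM with siNRP1#3, and its log2 fold changes over the 12 knockdowns spanned -0.35 to 0.13 without a call.

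**Figure D3:**
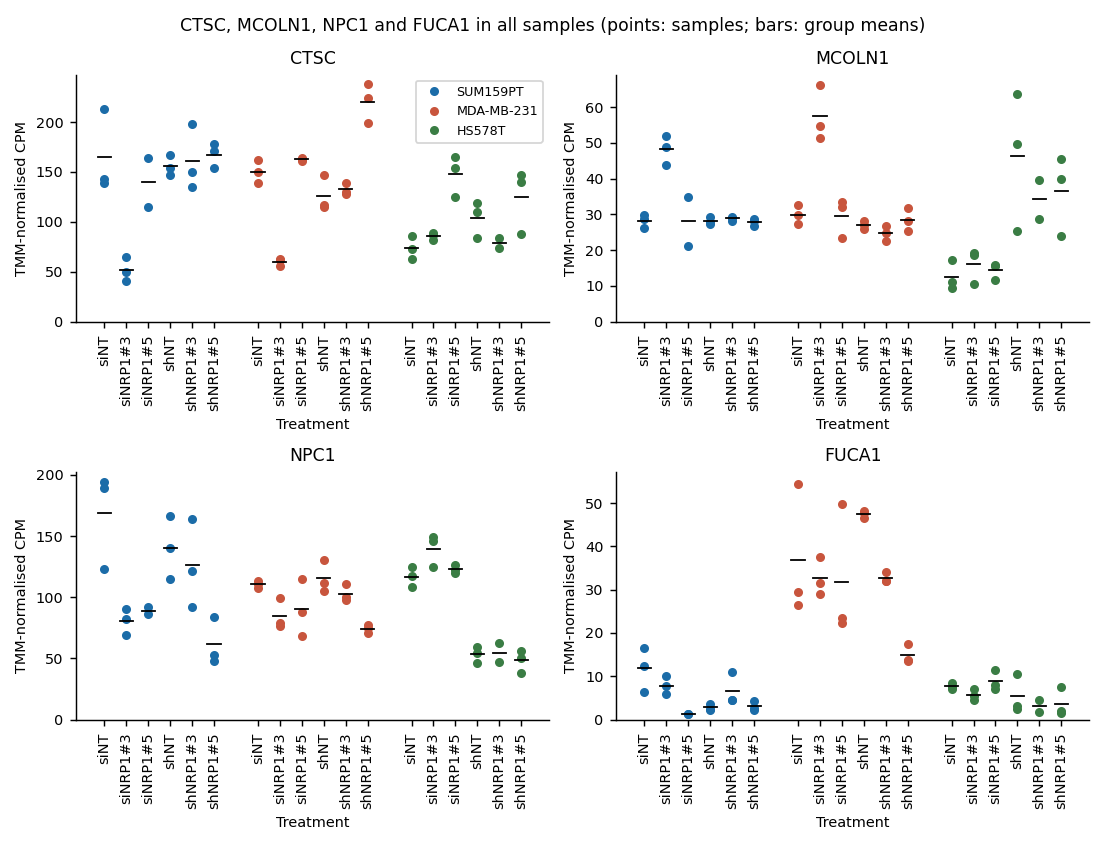
TMM-normalised CPM of CTSC, MCOLN1, NPC1 and FUCA1 in all 52 samples, points for samples and bars for group means, by treatment within SUM159PT, MDA-MB-231 and HS578T. CTSC with siNRP1#3 lies at 41.0 to 64.9 CPM in SUM159PT and MDA-MB-231, below every other sample of these lines, and MCOLN1 with siNRP1#3 lies at 43.9 to 66.3 CPM there, above every other sample of them.

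Of the 9 cathepsins and peptidases among the members, CTSC had the largest change with siNRP1#3 in SUM159PT and MDA-MB-231. CTSC (chr11:88265069-88359684) encodes dipeptidyl peptidase I, which activates serine proteases of immune cells. It fell from 139, 213 and 143 CPM to 50.0, 64.9 and 41.0 CPM in SUM159PT (-1.67 ± 0.23, adjusted p = 0.00045) and from 150, 162 and 139 CPM to 61.6, 62.8 and 56.1 CPM in MDA-MB-231 (-1.32 ± 0.11, adjusted p = 1.5e-07). In both lines all siNRP1#3 samples lay below all siNT samples, and both calls were kept in 6 of 6 fits with 1 sample left out. In HS578T the siNRP1#3 samples held 89.1, 86.9 and 82.3 CPM beside 62.7, 73.3 and 85.4 CPM with siNT, without a call. With shNRP1#3 in MDA-MB-231, CTSC held 130, 128 and 139 CPM within the shNT range of 115 to 147 CPM.

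CTSC rose under sequence #5 in other settings. In MDA-MB-231 the shNT samples held 147, 117 and 115 CPM and the shNRP1#5 samples 199, 238 and 224 CPM, without overlap (0.80 ± 0.11, adjusted p = 7.8e-05). In HS578T, siNRP1#5 held 154, 124 and 165 CPM, above the 3 siNT samples given before (1.00 ± 0.21, adjusted p = 0.0047). After reads of other lines were subtracted the log2 fold change was 1.16 (adjusted p = 0.0037).

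CTSS (chr1:150730079-150765957) changed in different directions by line and delivery. In MDA-MB-231, siNT held 24.8, 24.3 and 27.3 CPM and siNRP1#5 7.00, 5.82 and 7.47 CPM, far apart (-1.91 ± 0.15, adjusted p = 3.8e-08). The shNT samples held 11.8, 11.4 and 13.8 CPM and the shNRP1#3 samples 25.01, 23.6 and 21.8 CPM, a rise without overlap (0.93 ± 0.15, adjusted p = 0.0011). In HS578T, siNT held 0.161, 0.124 and 0.403 CPM and siNRP1#5 2.74, 3.73 and 1.39 CPM (3.49 ± 0.63, adjusted p = 0.0015). These are the libraries with RNA of MDA-MB-231, a line that expresses CTSS, and its part in this value was not tested. After the subtraction, which used the level of the MDA-MB-231 controls, CTSS no longer passed the filter on low counts. The siNRP1#5 samples of MDA-MB-231 held less CTSS than those controls.

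CTSZ held 249, 259 and 222 CPM with siNT in SUM159PT, 185, 130 and 152 CPM with siNRP1#3 and 141 and 161 CPM with siNRP1#5, each below siNT (-0.64 ± 0.19, adjusted p = 0.046, kept in 0 of 6 fits with 1 sample left out, and -0.69 ± 0.22, adjusted p = 0.037, kept in 1 of 5). In MDA-MB-231, siNT held 255, 295 and 327 CPM, siNRP1#3 196, 216 and 208 CPM (-0.50 ± 0.13, adjusted p = 0.0068) and siNRP1#5 141, 142 and 187 CPM (-0.90 ± 0.13, adjusted p = 2.9e-05). Its shNT samples there held 267, 300 and 298 CPM and its shNRP1#5 samples 184, 170 and 169 CPM (-0.73 ± 0.13, adjusted p = 0.00065). The 3 calls of MDA-MB-231 were each kept in 6 of 6 fits with 1 sample left out, and no knockdown sample of these 5 comparisons reached its controls.

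CTSL, a cysteine cathepsin with broad specificity, gave the 1 call of siNRP1#3 in HS578T, where it fell from 197, 165 and 177 CPM to 72.3, 82.5 and 112 CPM (-1.01 ± 0.19, adjusted p = 0.005, and -0.99, adjusted p = 0.010, after the subtraction). It was also lower with siNRP1#5 in HS578T (-0.65 ± 0.19, adjusted p = 0.022, and -0.50, adjusted p = 0.097, after the subtraction) and in MDA-MB-231 (-0.49 ± 0.11, adjusted p = 0.0021). CTSB held 823, 1317 and 748 CPM with siNT in SUM159PT and 518, 629 and 539 CPM with siNRP1#3, all below siNT (-0.78 ± 0.20, adjusted p = 0.025), a call lost without siNRP1#3 replicate 1 or 3 (-0.72 and -0.74) or siNT replicate 2 (-0.50). With siNRP1#5 in HS578T it held 1063, 696 and 870 CPM beside 1422, 1366 and 1768 CPM with siNT (-0.79 ± 0.21, adjusted p = 0.014, and -0.58, adjusted p = 0.093, after the subtraction). CTSD (chr11:1752752-1764573) fell with shNRP1#5 in MDA-MB-231, from 1911, 1754 and 1943 CPM to 1039, 831 and 801 CPM (-1.07 ± 0.16, adjusted p = 0.00022), and was called in none of the other 11 knockdowns (-0.50 to 0.07). TPP1 fell with siNRP1#5 in SUM159PT, from 184, 183 and 118 CPM to 58.8 and 48.9 CPM (-1.59 ± 0.27, adjusted p = 0.0014), and with shNRP1#5 in MDA-MB-231 (-0.71 ± 0.18, adjusted p = 0.0082). In that last comparison CTSK (-0.85), CTSB (-0.62) and CTSA (-0.51), a carboxypeptidase that also protects other lysosomal enzymes, were called lower as well, kept in 0, 0 and 3 of 6 fits with 1 sample left out.

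Among the glycosidases, FUCA1 (chr1:23845077-23868290) fell most, under sequence #5 and in 2 lines by different deliveries. In SUM159PT, siNT held 12.5, 16.5 and 6.36 CPM and siNRP1#5 1.27 and 1.27 CPM, a 9.27-fold lower level without overlap (-3.21 ± 0.52, adjusted p = 0.0012). In MDA-MB-231, shNT held 48.1, 47.7 and 46.6 CPM and shNRP1#5 17.4, 13.5 and 13.7 CPM, 3.19-fold lower (-1.67 ± 0.28, adjusted p = 0.00053). Its siNRP1#5 samples in MDA-MB-231 held 23.5, 22.2 and 49.9 CPM and overlapped siNT (26.5, 29.5 and 54.5 CPM).

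With shNRP1#5 in MDA-MB-231, GAA fell from 115, 67.0 and 75.2 CPM to 41.4, 42.1 and 36.9 CPM (-1.09 ± 0.26, adjusted p = 0.0065). NAGLU, which degrades heparan sulfate, fell there from 61.1, 60.9 and 55.1 CPM to 35.9, 32.4 and 28.7 CPM (-0.87 ± 0.23, adjusted p = 0.014), a call lost without shNRP1#5 replicate 3 (-0.79). GLA, the alpha-galactosidase deficient in Fabry disease, went the other way, from 30.3, 27.2 and 24.9 CPM to 45.3, 44.8 and 41.3 CPM (0.67 ± 0.13, adjusted p = 0.0013). No sample of these 3 genes crossed between the groups. GUSB (-0.58), GLB1 (-0.57) and MAN2B1 (-0.56) were also called lower, kept in 6, 3 and 0 of 6 fits with 1 sample left out. GUSB has near-identical pseudogene copies, so that its counts are less certain. MAN2B1, an alpha-mannosidase, gave the 1 call of shNRP1#5 in HS578T, where it held 64.2, 64.0 and 53.0 CPM with shNT and 31.7, 26.3 and 32.1 CPM with shNRP1#5 (-1.01 ± 0.22, adjusted p = 0.036). Those groups were apart, and the call was lost in 5 of 6 fits with 1 sample left out (-1.09 to -0.92), after the subtraction (adjusted p = 0.068) and with only these groups fitted (adjusted p = 0.068).

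**Figure D4:**
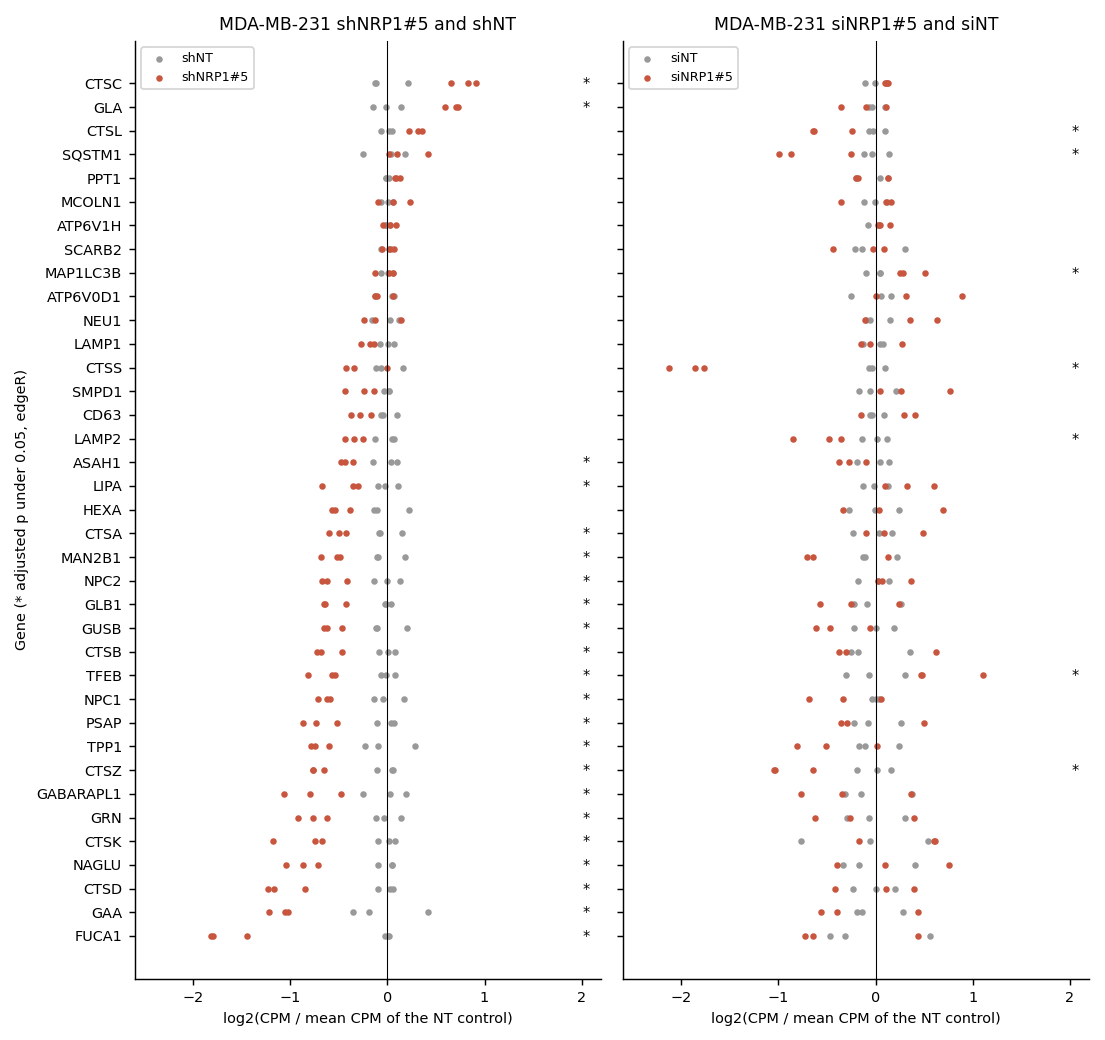
Each gene's CPM over the mean of its non-targeting control, on a log2 scale, in MDA-MB-231 with shNRP1#5 and shNT (left) and with siNRP1#5 and siNT (right), 1 point per sample and an asterisk at adjusted p under 0.05. On the left 20 genes lie lower and 2 higher than shNT with an asterisk, and on the right 5 lie lower and 2 higher than siNT.

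Of the lipid-handling genes, NPC2, the soluble carrier that passes cholesterol to NPC1, fell with siNRP1#5 in SUM159PT from 289, 298 and 271 CPM to 102 and 149 CPM (-1.19 ± 0.24, adjusted p = 0.0036). It was also lower with shNRP1#5 in MDA-MB-231 (-0.57 ± 0.12, adjusted p = 0.0037), together with PSAP (-0.70), progranulin GRN (-0.76), acid ceramidase ASAH1 (-0.42) and the acid lipase LIPA (-0.43). LIPA kept its call in 0 of 6 fits with 1 sample left out, ASAH1 and GRN in 1, PSAP in 5 and NPC2 in 6. With siNRP1#3 in MDA-MB-231, LIPA (-0.60 ± 0.15, adjusted p = 0.0062) and the palmitoyl thioesterase PPT1 (-0.34 ± 0.11, adjusted p = 0.024) were lower, kept in 6 and 2 of 6 such fits. SMPD1, the acid sphingomyelinase, was lower with siNRP1#5 in HS578T (-0.69, and -0.56 with adjusted p = 0.13 after the subtraction).

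Of the autophagy adaptors, MAP1LC3B, the LC3 protein that is coupled to the autophagosome membrane, was higher with both siRNAs in MDA-MB-231. It held 123, 111 and 124 CPM with siNT, 155, 176 and 146 CPM with siNRP1#3 (0.42 ± 0.11, adjusted p = 0.011) and 146, 142 and 170 CPM with siNRP1#5 (0.35 ± 0.11, adjusted p = 0.024), above every siNT sample. These calls were kept in 4 and 3 of 6 fits with 1 sample left out (0.33 to 0.47 and 0.27 to 0.40). With shNRP1#3 it was lower, at 73.8, 92.9 and 90.4 CPM beside 117, 124 and 128 CPM with shNT (-0.52 ± 0.11, adjusted p = 0.012), a call lost without shNRP1#3 replicate 1 or shNT replicate 2 or 3 (-0.43 to -0.52). In HS578T it held 77.4, 82.3 and 69.1 CPM with siNT and 166, 143 and 113 CPM with siNRP1#5 (0.89 ± 0.24, adjusted p = 0.017), a call lost without siNRP1#5 replicate 1 (0.76) or siNT replicate 3 (0.82), and the value was 1.09 (adjusted p = 0.011) after the subtraction. MAP1LC3B has a near-identical copy, MAP1LC3B2, with which reads could be shared.

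SQSTM1 fell with siNRP1#5 in MDA-MB-231, from 1296, 1146 and 1086 CPM to 591, 642 and 986 CPM (-0.67 ± 0.17, adjusted p = 0.0063), and was called in no other knockdown (-0.78 to 0.38). GABARAPL1 held 10.9, 11.04 and 9.16 CPM with siNT in HS578T and 22.1, 17.0 and 16.1 CPM with siNRP1#5 (0.83 ± 0.27, adjusted p = 0.042), a call lost in 6 of 6 fits with 1 sample left out (0.68 to 0.92) and after the subtraction (0.72, adjusted p = 0.11). In MDA-MB-231 it was lower with shNRP1#5 (-0.76 ± 0.23, adjusted p = 0.026), a call kept in 2 of 6 such fits (-0.92 to -0.63).

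Of the proton pump subunits, ATP6V0D1, whose promoter is also shown above, rose with siNRP1#3 in MDA-MB-231 from 130, 140 and 105 CPM to 234, 222 and 201 CPM, without overlap (0.81 ± 0.17, adjusted p = 0.0017). ATP6V1H was higher there by 0.28 ± 0.10 (adjusted p = 0.037), a call kept in 0 of 6 fits with 1 sample left out. TFEB (chr6:41683978-41736259) held 10.6, 9.03 and 13.7 CPM with siNT in MDA-MB-231 and 15.4, 15.5 and 23.9 CPM with siNRP1#5, all above siNT (0.71 ± 0.20, adjusted p = 0.01), a call lost without siNRP1#5 replicate 3 (0.47) or siNT replicate 2 (0.58). With shNRP1#5, of the same sequence, it held 6.21, 6.09 and 5.10 CPM beside 8.64, 8.90 and 9.52 CPM with shNT, all below shNT (-0.64 ± 0.20, adjusted p = 0.03), a call kept in 0 of 6 fits with 1 sample left out. Its log2 fold changes in the other knockdowns lay between -0.63 and 0.66, without a call. Of the 5 members with the longer E-box motif, fitted without a replicate block, MCOLN1 was thus called higher in 2 knockdowns and ATP6V0D1 in 1, GAA and CTSA were called lower in 1 each, and LAMP1 was called in none. With the block in the sample sets that the replicate numbers paired, GAA was also lower with siNRP1#5 in SUM159PT (-1.31, adjusted p = 0.0028) and with shNRP1#5 in HS578T (-0.89, adjusted p = 0.029), and ATP6V0D1 was also higher with siNRP1#3 and siNRP1#5 in SUM159PT (0.62, adjusted p = 0.027, and 0.66, adjusted p = 0.026). In SUM159PT the GAA samples overlapped, with 128 and 47.9 CPM for siNRP1#5 and 147, 337 and 97.3 CPM for siNT. The MDA-MB-231 siRNA samples were paired less clearly. With the block there, CTSA was higher with siNRP1#3 (0.36, adjusted p = 0.016, edgeR) and ATP6V0D1 with siNRP1#5 (0.43, adjusted p = 0.030).

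The 2 kinds of control were also compared, although delivery, selection and time of harvest cannot be told apart in them. In SUM159PT, shNT had 0 members higher and 16 lower than siNT (all genes, 5.96% and 8.45%), with 34 of 37 below 0 and a median of -0.65 (all genes -0.03). The count was 7 without shNT replicate 3. With the replicate as a block GLA was higher (0.77, adjusted p = 0.014, edgeR). LIPA (-0.70, 0.0094), GAA (-0.71, 0.020), NEU1 (-0.83, 0.036) and NAGLU (-0.59, 0.046) were then lower as well. Of the SUM159PT samples, only the siRNA samples are named as paired. In MDA-MB-231, 2 were higher and 3 lower (10.7% and 9.85%), in all 3 without shNT replicate 3 or siNT replicate 1 and 9 without siNT replicate 3. In HS578T, 2 were higher and 8 lower (9.14% and 8.8%), with 6 and 5 calls without shNT replicates 2 and 3 and 6 without siNT replicate 2 or 3. With the replicate as a block there were 18 calls.

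In SUM159PT, CTSS held 24.3, 26.7 and 15.5 CPM with siNT and 4.42, 3.83 and 3.42 CPM with shNT (-2.51 ± 0.52, adjusted p = 0.0087), a call lost without shNT replicate 3 (-2.43). FUCA1 held 2.43, 3.67 and 2.31 CPM with shNT (-2.07 ± 0.42, adjusted p = 0.007), below the 3 siNT samples given before. GRN went from 858, 1520 and 530 CPM to 342, 326 and 250 CPM (-1.66 ± 0.33, adjusted p = 0.007), and CTSD from 4913, 5692 and 3330 CPM to 1867, 2019 and 1053 CPM (-1.50 ± 0.29, adjusted p = 0.0065). No shNT sample of these 4 genes reached the siNT range. The other lower calls lay between -1.35 for GABARAPL1 and -0.63 for CD63.

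In HS578T, MCOLN1 was higher in shNT (25.3, 63.7 and 49.7 CPM) than in siNT (9.34, 11.2 and 17.4 CPM), at 1.87 ± 0.36 (adjusted p = 0.0028), and so was ATP6V0D1 (133, 177 and 127 against 56.1, 68.8 and 82.5 CPM, 1.08 ± 0.22, adjusted p = 0.0045). GABARAPL1 was lower (4.26, 2.17 and 2.99 against 10.9, 11.04 and 9.16 CPM, -1.71 ± 0.28, adjusted p = 0.0013), as was NPC1 (46.5, 59.0 and 54.7 against 108, 117 and 125 CPM, -1.13 ± 0.19, adjusted p = 0.0014). None of these 4 overlapped. CTSK went from 1.77, 0.968 and 0.967 CPM to 0.315, 0.401 and 0.466 CPM (-1.64 ± 0.46, adjusted p = 0.02), a call lost without siNT replicate 1 (-1.30) or any 1 shNT replicate (-1.49 to -1.79).

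In MDA-MB-231, CTSS was lower in shNT (-1.05 ± 0.15, adjusted p = 8.1e-05, samples given before), and so were GLA (30.3, 27.2 and 24.9 against 37.7, 41.5 and 37.0 CPM, -0.50 ± 0.13, adjusted p = 0.0098) and CTSL (80.9, 86.1 and 87.8 against 109, 111 and 122 CPM, -0.42 ± 0.11, adjusted p = 0.0098). NPC2 was higher (226, 272 and 248 against 158, 182 and 197 CPM, 0.47 ± 0.12, adjusted p = 0.011), as was LAMP1 (329, 316 and 298 against 228, 258 and 261 CPM, 0.34 ± 0.11, adjusted p = 0.037). The GLA call was lost without shNT replicate 3 (-0.43), the NPC2 call without shNT replicate 2 or siNT replicate 1 (0.40 and 0.39), and the LAMP1 call was kept in 1 of 6 such fits.

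Since siNRP1#5 and shNRP1#5 have the same sequence, the difference between their effects was tested directly. The depth of knockdown was unequal. NRP1 was left at 3.37% of its control mean with siNRP1#5 and at 48.3% with shNRP1#5 in MDA-MB-231. These levels were 5.01% and 20.3% in SUM159PT and 15.8% and 23.5% in HS578T, and their part was not tested. In MDA-MB-231 the difference in effect was called for 15 of 37 members, beside 23.7% of all genes. The siRNA effect was the higher of the 2 for 10, among them TFEB (difference 1.35 ± 0.28, adjusted p = 0.0018), CTSD (1.14 ± 0.23, adjusted p = 0.0014) and FUCA1 (1.46 ± 0.38, adjusted p = 0.010), and the lower for 5, among them CTSS (-1.67 ± 0.21, adjusted p = 1.9e-05) and SQSTM1 (-0.86 ± 0.24, adjusted p = 0.015). In SUM159PT it was called for 3 members (all genes, 2.51%), all lower with the siRNA, FUCA1 (-3.33 ± 0.64, adjusted p = 0.021), LAMP2 (-1.51 ± 0.29, adjusted p = 0.020) and SCARB2 (-1.34 ± 0.27, adjusted p = 0.022). That count was 0 and 1 without shNT replicates 1 and 3, and 5 without siNRP1#5 replicate 3. In HS578T 0 members were called by edgeR (all genes, 0.854%), with 5 at an unadjusted p under 0.05.

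The effect of each sequence was likewise tested among the cell lines. For siNRP1#3 it differed for 2 members (all genes, 3.42%). CTSC had effects of -1.67, -1.32 and 0.22 in SUM159PT, MDA-MB-231 and HS578T (adjusted p = 2.2e-05) and NPC1 of -1.07, -0.38 and 0.26 (adjusted p = 0.014), and 1 call was left without replicate 1 or replicate 2 of every group. For siNRP1#5 it differed for 11 members (all genes, 18.2%), with 7 left without replicate 1 and 4 without replicate 2. FUCA1 (-3.21, -0.21 and 0.21), TPP1 (-1.59, -0.40 and -0.16) and LAMP2 (-1.43, -0.55 and -0.31) had their lowest values in SUM159PT, while CTSS (-1.25, -1.91 and 3.49) and GABARAPL1 (-1.14, -0.17 and 0.83) had opposite signs in SUM159PT and HS578T, where the libraries hold RNA of other lines. The SUM159PT values of CTSS and GABARAPL1 were called only with the replicate block. For CTSS they rest on samples of 15.9 and 2.82 CPM, the first within the siNT range. After the subtraction the HS578T values were -0.98 for FUCA1, -0.55 for TPP1, -0.38 for LAMP2 and 0.72 for GABARAPL1, and CTSS had none. The difference among lines was not tested after the subtraction. For shNRP1#3 there were 0 calls by edgeR (all genes, 0.747%, 1 member at an unadjusted p under 0.05) and for shNRP1#5 0 (all genes, 3.81%, 10 such members, and 2 calls by DESeq2).

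The other genes of the pathway were described from lists of 136 genes, comprising 33 enzymes and activators, 25 membrane and sorting genes, 16 pump subunits, 39 autophagy genes and 23 regulators at the lysosome. In SUM159PT, siNRP1#5 left 5 of them higher and 28 lower (all genes, 9% and 8.89%), of which 16 were among the 33 enzymes (median log2 fold change -0.91). In MDA-MB-231, siNRP1#3 left 21 higher and 29 lower (11.4% and 14.3%), siNRP1#5 24 and 30 (14.4% and 14.9%), and shNRP1#5 6 and 30 (8.79% and 11.9%). In HS578T these counts were 4 and 3 (2.31% and 2.34%), 10 and 9 (10.1% and 8.53%), and 1 and 3 (0.275% and 0.671%). CTSO, a cysteine cathepsin, was the enzyme that fell furthest with siNRP1#3 in all lines (-2.77, -2.15 and -3.36 in SUM159PT, MDA-MB-231 and HS578T). It also fell furthest with siNRP1#5 in SUM159PT (-2.09) and with shNRP1#5 in MDA-MB-231 (-1.63). In shNT against siNT of SUM159PT it was lowest as well (-2.28). OSTM1, the partner of a lysosomal chloride transporter, fell with siNRP1#3 by -2.87 in SUM159PT and -1.95 in MDA-MB-231. BECN1, a subunit of the lipid kinase complex that starts autophagosomes, fell with siNRP1#5 by -2.14 and -2.04 in the same lines, and the pump subunit ATP6V0E1 fell with shNRP1#5 by -2.57 in SUM159PT and -1.92 in HS578T. With siNRP1#5 in HS578T, SORL1 (4.48), VAMP8 (3.96) and RRAGD (2.83) were higher. Their controls in HS578T lay below those of MDA-MB-231 by -7.35, -7.06 and -6.57, these are the libraries with RNA of MDA-MB-231, and its part in these values was not tested.

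The isoform percentages of LAMP2, estimated by RSEM as the share of the gene's TPM in each transcript, differed with siNRP1#5 and are given as a description. LAMP2-202 made up 29.9, 28.5 and 25.2% with siNT in MDA-MB-231 and 7.11, 5.91 and 5.77% with siNRP1#5, and 26.0, 17.5 and 26.2% against 7.32 and 7.71% in SUM159PT. LAMP2-203 made up 18.9, 16.6 and 17.1% and 39.9, 47.2 and 45.2% in MDA-MB-231, and 21.7, 19.7 and 19.6% and 37.4 and 41.3% in SUM159PT. In both lines the groups were apart for both transcripts. LAMP2-204 averaged 42.9% with siNT and 39.4% with siNRP1#5 in SUM159PT, and 38.7% and 32.4% in MDA-MB-231. LAMP2-201 averaged 7.65% and 9.54% in SUM159PT, and 9.36% and 11.5% in MDA-MB-231. In HS578T, LAMP2-202 made up 22.7, 21.3 and 19.6% with siNT and 9.06, 18.8 and 18.7% with siNRP1#5. Those siNRP1#5 libraries hold RNA of MDA-MB-231 at 16.9, 13.3 and 8.65% of its level. Isoform percentages were not computed after a subtraction, and the part of that RNA was not tested. With shNRP1#5, of the same sequence, LAMP2-202 stood at means of 27.0% (shNT 34.4%) in SUM159PT and 25.02% (shNT 21.4%) in MDA-MB-231. With siNRP1#3, LAMP2-202 lay below siNT in MDA-MB-231 (18.3 to 23.6% against 25.2 to 29.9%) and HS578T (11.4 to 17.8% against 19.6 to 22.7%). LAMP2-203 lay above siNT there (23.0 to 38.1% against 16.6 to 18.9%, and 26.3 to 38.0% against 20.7 to 25.6%). In SUM159PT both transcripts overlapped siNT with siNRP1#3. Between the controls of MDA-MB-231, LAMP2-203 averaged 30.1% with shNT and 17.5% with siNT.

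**Figure D5:**
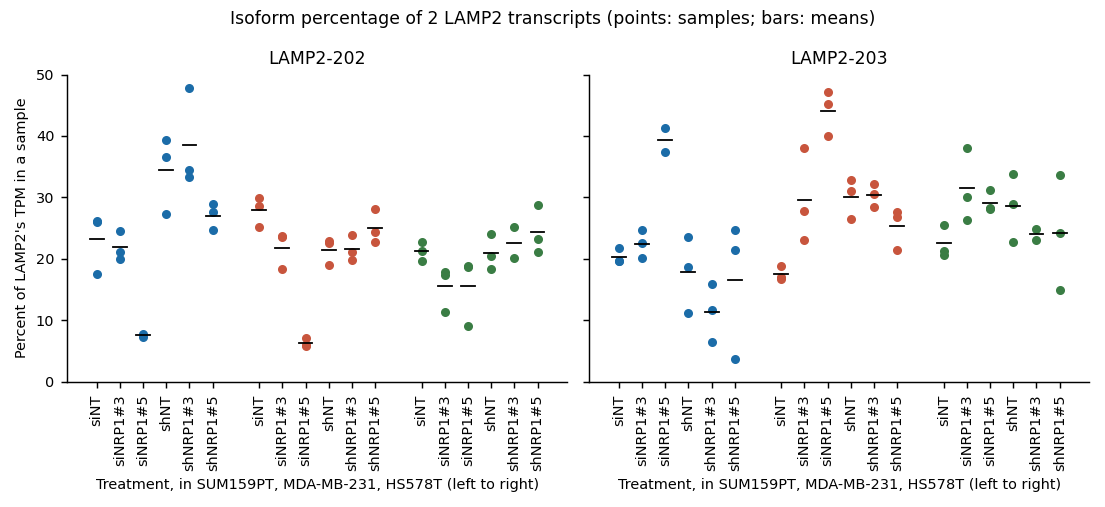
Percent of LAMP2's TPM in LAMP2-202 and LAMP2-203, points for samples and bars for group means, by treatment within SUM159PT, MDA-MB-231 and HS578T. With siNRP1#5, LAMP2-202 averages 7.5% in SUM159PT and 6.3% in MDA-MB-231, and LAMP2-203 averages 39.3% and 44.1%.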

How the data were processed

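RNA was sequenced by the authors from 52 samples as stranded, polyadenylated libraries. Per the labels and the methods, reads were trimmed with Trim Galore 0.6.5, checked with FastQC 0.11.9, aligned with STAR 2.7.2b to GRCh38 with GENCODE annotation and quantified with RSEM 1.3.3. The deposited expected counts are RSEM estimates per gene, not normalized. The deposited TPM values are scaled by the authors to transcript length and to a fixed total per sample. The deposited isoform percent values give each transcript's share of its gene. All columns matched a sample (0 did not).

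Expected counts were rounded and filtered with filterByExpr. They were TMM-normalised and tested with edgeR 4.0.16 (R 4.3.3, limma 3.58.1) by the quasi-likelihood method, with 6 group means per cell line, or 18 group means over 52 samples between lines. Calls are Benjamini-Hochberg adjusted p under 0.05 over all genes tested, written as log2 fold change ± SE. DESeq2 1.42.0 was an alternative. Tables and figures used Python 3.11.15, numpy 2.4.6, pandas 2.3.3 and matplotlib 3.10.9. In data simulated for MDA-MB-231 shNRP1#5 (18800 genes, 200 changed by a log2 fold of 1), 118 changed genes (59%) and 8 unchanged ones were called. Depth of 25310443 to 72003442 expected counts limits precision for members with few counts.

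Members and lists were chosen with earlier results of these data known. Up to 4 called members with the largest change in each comparison are given per sample, TFEB, SQSTM1, LAMP1, CTSD and MAP1LC3B are described whatever they did, and up to 8 members are given for the cell lines. Values printed per sample for other members were chosen after they were seen. Reads of other cell lines were estimated from marker genes with at least 20 CPM in that line and at most 0.5 CPM in the line studied. The mean profile of that line's non-targeting controls, scaled by the level of the markers, was subtracted whatever the treatment of the sample. The further requirement that the third line also had at most 0.5 CPM was chosen after seeing the data. Whether equal replicate numbers pair the samples was checked from the correlation of deviations from group means. It was over 0.1 in each of 7 pairs in HS578T shRNA samples (0.243 to 0.672) and in each of 7 pairs in SUM159PT siRNA samples (0.132 to 0.392). Only these 2 sets are named as paired. In MDA-MB-231 siRNA samples, 7 of 9 pairs of equal number were over 0.1 (median 0.234), against 2 of 18 of unequal number (median -0.130). In SUM159PT shRNA samples these were 5 of 9 and 3 of 18. Gene coordinates are from the GRCh38 annotation at hand, an earlier release than the one used by the authors.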

Additional observations from a re-analysis of the deposited data

Results flagged for a closer look

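The following members had an effect of the #5 sequence that differed between siRNA and shRNA in the test of that difference (siRNA effect minus shRNA effect, log2, edgeR, adjusted p under 0.05). In SUM159PT these were LAMP2 (-1.51), SCARB2 (-1.34) and FUCA1 (-3.33). In MDA-MB-231 the difference was above 0 for CD63 (0.48), CTSA (0.69), CTSD (1.14), CTSK (1.24), NAGLU (1.10), FUCA1 (1.46), SMPD1 (0.65), LIPA (0.79), NPC2 (0.73) and TFEB (1.35), and below 0 for CTSC (-0.69), CTSL (-0.79), CTSS (-1.67), GLA (-0.78) and SQSTM1 (-0.86). FUCA1 thus had a difference below 0 in SUM159PT and above 0 in MDA-MB-231. siRNA and shRNA samples also differ in delivery, selection and time of harvest, and the #5 knockdowns in the NRP1 level left. These cannot be told apart.

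Other members had an effect that differed among the 3 cell lines in a joint test, given as the largest minus the smallest log2 effect. With siNRP1#3 these were NPC1 (1.33) and CTSC (1.89). With siNRP1#5 these were LAMP2 (1.12), SCARB2 (0.88), NPC1 (1.00), CTSC (1.24), CTSS (5.41), CTSZ (0.82), TPP1 (1.43), FUCA1 (3.42), SMPD1 (1.08), NPC2 (1.35) and GABARAPL1 (1.97). The tests of siNRP1#5 rest in part on HS578T libraries that hold RNA of MDA-MB-231 at 8.65 to 16.9% of its level. After reads of other lines were subtracted, the HS578T effect went from 0.21 to -0.98 for FUCA1, from -0.16 to -0.55 for TPP1, from 1.00 to 1.16 for CTSC and from 0.83 to 0.72 for GABARAPL1, and CTSS no longer passed the filter on low counts. The differences among lines were not tested after the subtraction.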

How the results depend on the processing

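Of 168 calls of members, 163 stood with DESeq2, 160 with RLE size factors, 142 without a filter on low counts, 167 with the replicate block and 155 after reads of other lines were subtracted, an alternative chosen after seeing the data. Of 98 calls, 76 stood with only the 2 groups fitted, of 70 between lines 67 stood with only the controls, and of 790 calls with 1 sample or replicate left out 549 stood. No call changed sign in any of these. The causes were not tested.

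The number of members called moved by more than 1.5 times as follows. With only the 2 groups fitted it was 3 for SUM159PT siNRP1#3, 0 for siNRP1#5 and 2 for shNRP1#3, 2 for MDA-MB-231 siNRP1#5, 5 for shNRP1#3 and 8 for shNT against siNT, and 0 for HS578T shNRP1#5. With the replicate block it was 16 for SUM159PT siNRP1#5, 1 for shNRP1#3 and 2 for shNRP1#5, 16 for MDA-MB-231 siNRP1#3, 13 for siNRP1#5 and 9 for shNT against siNT, 3 for HS578T siNRP1#3, 5 for shNRP1#5, 18 for shNT against siNT and 1 for siNRP1#5 minus shNRP1#5, and 1 and 7 for shNRP1#3 and shNRP1#5 among lines. Outside the sets named as paired, it is less clear whether equal numbers pair the samples, above all in MDA-MB-231 siRNA samples. With DESeq2 it was 1 for SUM159PT shNRP1#3, 4 for HS578T siNRP1#3, 3 for HS578T shNRP1#5 and 2 for shNRP1#5 among lines. Without a filter it was 2 for SUM159PT shNRP1#3, 2 for HS578T siNRP1#3, 5 for HS578T siNRP1#5, and 4, 1 and 3 for siNRP1#3, shNRP1#3 and shNRP1#5 among lines. With RLE size factors it was 1 for shNRP1#5 among lines. After the subtraction it was 2 for HS578T siNRP1#5 and 0 for HS578T shNRP1#5.

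Leaving out 1 sample gave, in the order siNRP1#3, siNRP1#5, shNRP1#3 and shNRP1#5, 2 to 9, 5 to 14, 0 to 0 and 0 to 1 calls in SUM159PT, 7 to 9, 5 to 13, 1 to 2 and 10 to 16 in MDA-MB-231, and 1 to 2, 2 to 6, 0 to 0 and 0 to 1 in HS578T. For shNT against siNT it gave 7 to 18, 3 to 9 and 5 to 9, and for siNRP1#5 minus shNRP1#5 0 to 5, 10 to 22 and 0 to 0. Leaving out a replicate number gave 16 to 22 for MDA-MB-231 against SUM159PT, 16 to 22 for HS578T against SUM159PT and 16 to 20 for HS578T against MDA-MB-231, and among lines 1 to 2, 4 to 10, 0 to 0 and 0 to 1. Where this left 1 sample in a group, that sample was assumed to vary like the other groups. Depth limits CTSS in HS578T and CTSK most.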
